A study of Arabidopsis thaliana with 12 samples.

Results

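The effect of bleomycin (BLM) alone on wild-type Arabidopsis thaliana seedlings was measured by comparing 3 arrays of seedlings given BLM at 4 µg/ml with 3 arrays of untreated control seedlings. These 6 arrays were chosen by their sample titles, out of 12 in the series, and all 22746 probe sets other than the array's own controls were tested. The other 6 arrays held seedlings given BLM+INA, at 4 µg/ml and 10 µM, and seedlings given INA alone at 10 µM, INA being the immune inducer of the study. They entered the comparison only through the shared estimate of the spread. They also gave a second measurement of the change with BLM, from arrays outside the BLM and control means. All seedlings were grown on MS plates, and total RNA of whole seedlings was hybridised, with 3 biological replicates per group. The age of the seedlings and the length of the treatment are not given in the sources used here, and neither is what separates the biological replicates, so the p values measure the spread between these arrays.

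BLM is a glycopeptide antibiotic that breaks DNA strands. In plants, DNA breaks are sensed by the kinases ATM and ATR, which activate the transcription factor SOG1, and repair genes are then switched on while cell cycle progression is held. Genes of mitosis are transcribed in a burst as cells pass from G2 into division, through MYB factors that bind their promoters, so whole-seedling RNA of such genes comes from the small meristems of root and shoot. Root hairs grow from single epidermal cells by local loosening of the wall, with expansins and secreted peroxidases among the products these cells make.

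The deposited values are log2 values with each probe set's median over the 12 arrays set to 0. They show differences between groups and hold no expression levels. How finely the numbers are stored gives only a coarse level class, which was not used to check the labelled tissue by its markers. By this class, genes named below with probe sets under 4 on the log2 scale included AT3G05600, AT1G20750, BAN, UGT73C1, CYP718, WRKY22 and LCR67. A probe set of AT4G32700 was in this class too. Changes are BLM minus control on the log2 scale, ± SE, with n = 3 arrays per group, and the test was limma's two-sided moderated test with Benjamini-Hochberg adjustment over all 22746 probe sets and a threshold of 0.05. In all, 3790 probe sets passed, which is 16.7% of those tested; 1905 rose (8.38%) and 1885 fell (8.29%). Changes of at least 2-fold were made by 571 of them (2.51%), of which 259 were rises (1.14%) and 312 falls (1.37%). The 3 BLM arrays did not overlap the 3 control arrays in 32.8% of all probe sets, lying above them in 18.4% and below them in 14.3%. The median change of all probe sets was 0.04. Gene names were used only for the 13513 probe sets paired with exactly 1 gene, of which 14.7% passed, against 19.7% of the 8730 probe sets outside the gene table. For this reason most members of the gene lists below could not be looked up by name. The gene lists and families were chosen with earlier results of these data known. Counts of their members, set against the share of all probe sets, are therefore descriptions and no independent evidence. The 3′ minus 5′ signal of actin, a sign of RNA quality, was -0.21 ± 0.24 in BLM and -0.09 ± 0.20 in control (SD, n = 3 each), and that of GAPDH was -0.04 ± 0.06 in BLM and 0.07 ± 0.19 in control. The arrays of both groups overlapped in both measures.

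The list of DNA damage signalling and repair genes had 9 of its 55 members measured by name, on 10 probe sets, and their changes were small. With BLM, 2 of the 10 probe sets rose and 8 did not pass, and the median change was 0.16, against 0.04 over all probe sets and 8.38% of all probe sets called upward. ATLIG4 (AT5G57160), the DNA ligase IV that seals broken ends in end joining, stood at 0.05, 0.32 and 0.21 in the 3 BLM arrays, against -0.22, -0.12 and -0.15 in the 3 control arrays. The BLM arrays lay above the control arrays, and the gene rose by 0.36 ± 0.10 (adjusted p = 0.0253). RAD5 (AT5G22750), a helicase-like protein of DNA damage tolerance, stood at 0.29, 0.29 and 0.02 in BLM, against -0.08, -0.15 and -0.54 in control, and rose by 0.46 ± 0.13 (adjusted p = 0.0251). Both calls were near the threshold. ATLIG4 did not pass in fits that left out BLM replicate 2 or 3 or any control array (0.29 to 0.38), nor RAD5 in fits that left out BLM replicate 1 or 2 (both 0.41) or control replicate 3 (0.31).

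The other repair genes did not pass. UNG (AT3G18630), the uracil DNA glycosylase of base excision repair, had a change of 0.23 ± 0.13, with BLM arrays at -0.13, 0.51 and 0.17. RAD9 (AT3G05480), part of the checkpoint clamp, had a change of 0.14 ± 0.17, and POLH (AT5G44740), the translesion polymerase eta, one of -0.02 ± 0.11. AT1G48360, AT1G52530 and AT4G32700, which RefSeq lists by locus only, stood between 0.04 and 0.18. On simulated data the test recovered 63.6% of 1.5-fold changes and 95.6% of 2-fold changes. Only 200 probe sets were changed there, against 3790 called here, and changes as small as those of these genes were not simulated. The shares therefore do not give the chance of missing these genes.

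Larger rises stood in a second list, of genes reported to rise after DNA breaks. It had 8 of 32 members measured, of which 7 rose and 1 fell, with a median of 1.56, where 8.38% of all probe sets rose and 8.29% fell. Neither the count nor the median is independent evidence, as for every list and family here. AT5G60250, AT3G45730, AT4G22960 and AT2G18600 were placed on this list with earlier results of these data known. They had the largest rises of the list, so its median rests on them. The other measured members had changes of -0.39 to 0.90. AT5G60250 stood at 2.27, 2.37 and 2.09 in BLM, against -2.95, -2.73 and -2.51 in control. The rise of 4.97 ± 0.13 was 31.4-fold and the largest of all 22746 probe sets (adjusted p = 2e-13). ATMND1 (AT4G29170), whose product works with HOP2 in meiotic recombination, stood at 0.25, 0.50 and 0.33 in BLM, against -0.56, -0.40 and -0.48 in control, and rose by 0.84 ± 0.12 (adjusted p = 9.08e-05). It is the only member of the 8 with a RefSeq symbol, and its groups did not overlap. AT3G45730, AT4G22960 and AT2G18600 rose by 2.21 to 2.40, AT5G49110 by 0.90 ± 0.12 and AT1G20750 by 0.63 ± 0.14. AT5G66985 fell by 0.39 ± 0.11, but did not pass in fits that left out BLM replicate 1 or 2 or control replicate 2 or 3 (-0.41 to -0.33). Outside the lists, chr31 (AT1G05490), a chromatin remodelling protein, rose by 0.98 ± 0.12; it was among the symbol-bearing genes that were named after their values were seen. Of the probe sets of all such symbol-bearing genes, 9.43% rose and 9.18% fell.

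**Figure D1:**
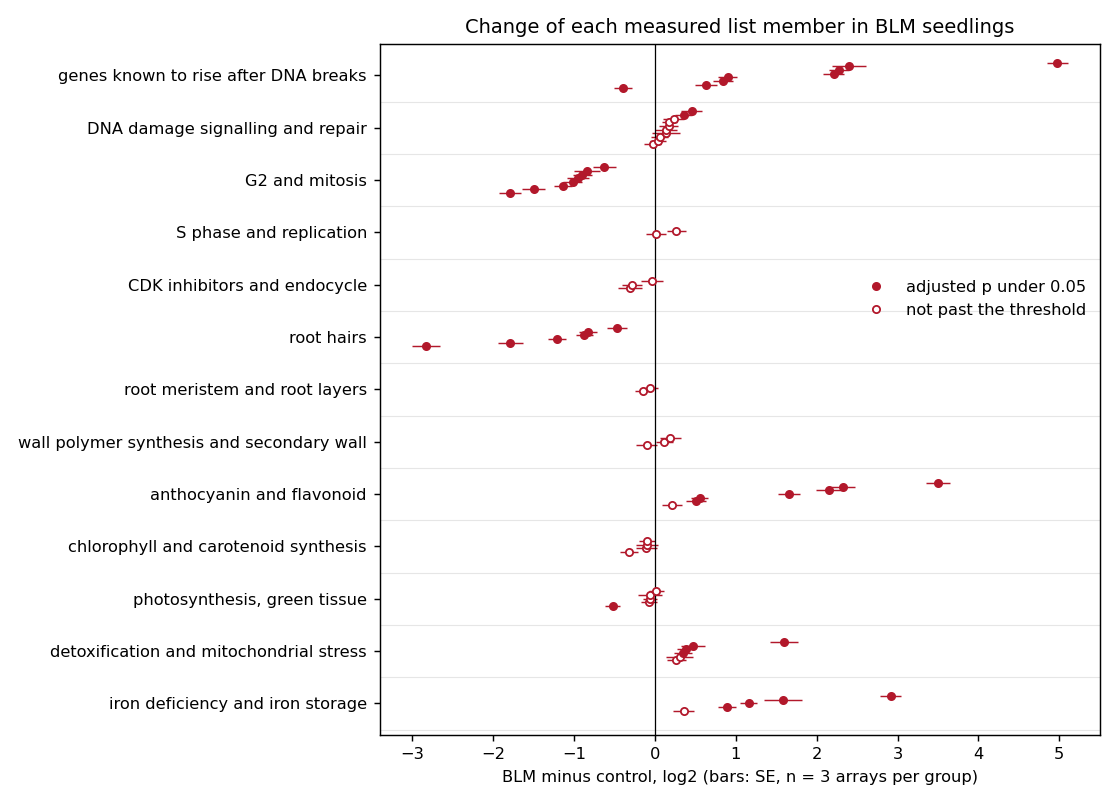
Change in BLM minus control seedlings on the log2 scale for every measured member of the 13 gene lists, 1 point per probe set with SE bars (n = 3 arrays per group); filled points passed an adjusted p of 0.05. All points of the mitosis and root hair lists lie left of 0, while those of the break-response, anthocyanin and iron lists lie right of 0 with the exception of AT5G66985 at -0.39.

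Genes of mitosis fell together. All 8 measured members of the G2 and mitosis list, of 47 on it, fell with BLM, with a median of -0.98, where 8.29% of all probe sets fell. In bulk RNA of whole seedlings, fewer dividing cells and less RNA per cell cannot be told apart. The steepest fall was that of 3xHMG-box2 (AT4G23800), an HMG-box protein that associates with mitotic chromosomes, which stood at -1.49, -1.04 and -0.88 in BLM, against 0.71, 0.65 and 0.62 in control. All BLM arrays lay below all control arrays, by 3.46-fold on average (-1.79 ± 0.14, adjusted p = 4.84e-08). Its relative 3xHMG-box1 (AT4G11080) stood at -0.79, -0.55 and -0.41 in BLM, against 0.55, 0.19 and 0.35 in control, a fall smaller than that of 3xHMG-box2 (-0.95 ± 0.13).

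The 3 Aurora kinase genes, which act on chromosomes and on the spindle during division, all fell. AUR2 (AT2G25880) stood at -1.06, -1.01 and -0.46 in BLM, against 0.48, 0.72 and 0.77 in control (-1.50 ± 0.15, adjusted p = 1.1e-06). AUR1 (AT4G32830) stood at -0.81, -0.66 and -0.44 in BLM, against 0.39, 0.54 and 0.56 in control (-1.13 ± 0.11). AUR3 (AT2G45490) stood at -0.39, -0.82 and -0.17 in BLM, against 0.41, 0.17 and 0.53 in control (-0.83 ± 0.16, adjusted p = 0.00146). In none of the 3 did the groups overlap, and AUR3 had the widest spread among its BLM arrays.

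Other parts of the division machinery fell as well. BUBR1 (AT2G33560), of the spindle checkpoint, stood at -0.67, -0.87 and -0.49 in BLM, against 0.23, 0.28 and 0.50 in control (-1.02 ± 0.11). KINESIN-12B (AT3G23670), a kinesin of the phragmoplast that builds the new cell plate, fell by 0.89 ± 0.12, and AT4G14330 by 0.62 ± 0.14. BLM replicate 3 was the highest of the BLM arrays for 3xHMG-box1, 3xHMG-box2, AUR1, AUR2, AUR3 and BUBR1. Without that array the 8 genes stayed past the threshold, as they did without each of the other 11 arrays.

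TOPII (AT3G23890), the topoisomerase II that untangles sister chromosomes, stood at -0.80, -0.59 and -0.58 in BLM, against 0.54, 0.42 and 0.51 in control (-1.15 ± 0.10, adjusted p = 3.46e-07). Of 8 histone genes recognised by symbol, 4 fell, none rose and 4 did not pass, with a median of -0.44, where 8.29% of all probe sets fell. HTB1 (AT1G07790), a histone H2B, stood at -0.46, -0.36 and -0.54 in BLM, against 0.39, 0.42 and 0.53 in control (-0.90 ± 0.11). The H2B genes HTB11 (AT3G46030) and HTB2 (AT5G22880) fell by 0.61 ± 0.12 and 0.55 ± 0.11. HTR12 (AT1G01370), the centromeric histone H3 that marks where the spindle attaches, stood at -0.49, -0.27 and -0.23 in BLM, against 0.24, 0.35 and 0.54 in control (-0.71 ± 0.15, adjusted p = 0.0031). UBC20 (AT1G50490), a ubiquitin-conjugating enzyme of the class that serves the anaphase-promoting complex, fell by 0.97 ± 0.12. TOPII and UBC20 belong to the symbol-bearing genes named after their values were seen.

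Of replication genes and cell cycle inhibitors, few were measured and none passed. PRL (AT4G02060), which is MCM7 of the replicative helicase, had a change of 0.01 ± 0.12, and ICU2 (AT5G67100), the catalytic subunit of DNA polymerase alpha, one of 0.27 ± 0.12, and neither passed. SIM (AT5G04470), the CDK inhibitor that starts endoreduplication in trichomes, stood at -0.26, -0.45 and 0.07 in BLM, against 0.04, 0.13 and 0.11 in control (-0.31 ± 0.15), so that its groups overlapped. AT1G08180 and AT5G02420 of the same list had changes of -0.28 ± 0.13 and -0.04 ± 0.13 and did not pass. Of 7 tubulin genes 2 passed, where 16.7% of all probe sets did. TUB7 (AT2G29550) fell by 0.68 ± 0.10 and TUA1 (AT1G64740) rose by 0.48 ± 0.12, but TUA1 did not pass when BLM replicate 1 (0.43) or control replicate 3 (0.41) was left out.

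**Figure D2:**
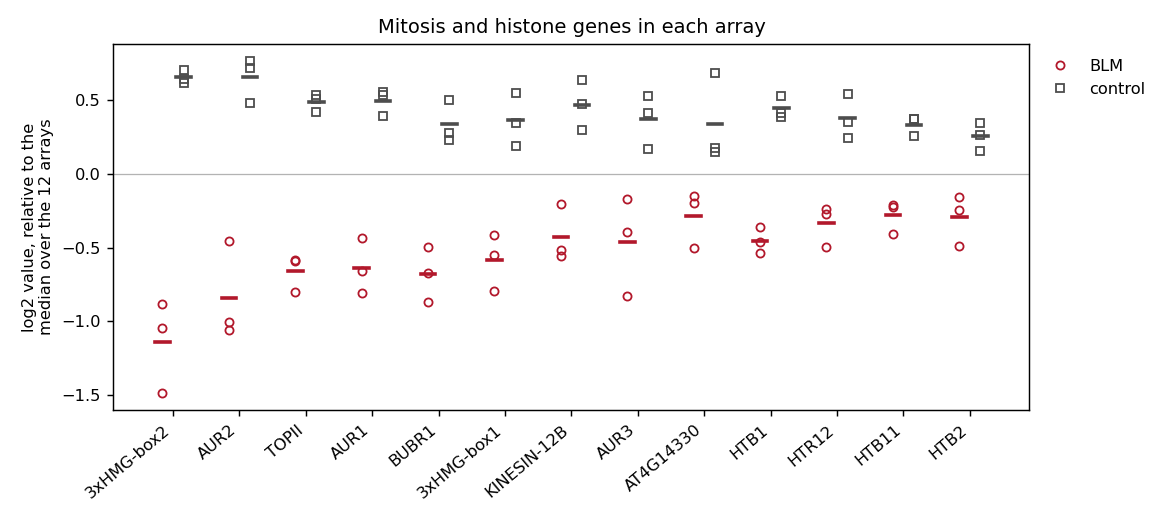
Log2 value of 13 mitosis, chromosome and histone genes in each array, relative to the probe set's median over the 12 arrays; open circles are the 3 BLM arrays, open squares the 3 control arrays and bars the group means. In every gene shown the BLM arrays lie below the control arrays, with the widest gap for 3xHMG-box2.

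Root hair genes fell together. All 6 measured members of 27 fell with BLM, with a median of -1.04, where 8.29% of all probe sets fell. For these genes, as for the peroxidase and wall genes below, fewer expressing cells and less RNA per cell cannot be told apart. AT4G26010 stood at -1.11, -1.46 and -1.45 in BLM, against 1.36, 1.43 and 1.67 in control, a 7.09-fold difference (-2.82 ± 0.17, adjusted p = 3.18e-09). AT1G30870 stood at -1.02, -1.56 and -0.89 in BLM, against 0.59, 0.56 and 0.73 in control (-1.78 ± 0.16), and AT5G17820 fell by 0.87 ± 0.10. The groups of these genes, which RefSeq lists by locus only, lay wide apart.

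The root hair expansin genes, whose products loosen the wall where a hair emerges, fell as well. EXPA7 (AT1G12560) stood at -0.54, -0.69 and -0.48 in BLM, against 0.54, 0.51 and 0.86 in control (-1.21 ± 0.12, adjusted p = 9.72e-07). EXPA18 (AT1G62980) stood at -0.49, -0.27 and -0.43 in BLM, against 0.29, 0.43 and 0.56 in control (-0.82 ± 0.11). SCN1 (AT3G07880), a RhoGDI that confines growth to 1 site per hair cell, fell by 0.47 ± 0.13 (adjusted p = 0.0171), and did not pass when BLM replicate 1 (-0.38) or control replicate 2 (-0.45) was left out.

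The 2 measured genes of the list for root meristem and root layers, of 26, did not pass, where 16.7% of all probe sets did. PYK10 (AT3G09260), the abundant root beta-glucosidase, stood at 0.05, -0.06 and -0.05 in BLM, against 0.19, 0.03 and -0.09 in control (-0.06 ± 0.10), and AT5G48940 had a change of -0.15 ± 0.09. Of the markers set for root, root hair and green shoot, 6 of 18 were measured by name. They were PYK10, EXPA7, EXPA18, LHCB4.2, PSAN and RCA, so the share of root in the seedlings rests on 1 gene. UPB1 (AT2G47270), a bHLH factor that represses peroxidase genes where root cells stop dividing and elongate, stood at -1.03, -0.72 and -0.55 in BLM, against 0.53, 0.59 and 1.09 in control. It fell by 1.51 ± 0.17 (adjusted p = 6.02e-06) and was named after its value was seen.

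Class III peroxidases are secreted enzymes that stiffen or loosen walls through peroxide. Of 7 recognised by symbol or synonym, 3 fell (8.29% of all probe sets did) and 1 rose (8.38%). Members without such a symbol or synonym were not counted, so the direction of the whole family is not shown. AT5G64120, listed as PRX71, stood at -1.01, -0.97 and -1.01 in BLM, against 0.70, 0.63 and 0.76 in control (-1.70 ± 0.09, adjusted p = 1.57e-09). AT5G66390, listed as PRX72, fell by 1.37 ± 0.11 and Prx37 (AT4G08770) by 0.95 ± 0.13. AT2G41480, listed as PRX25, stood at 0.74, 0.33 and 0.74 in BLM, against -0.52, -0.33 and -0.36 in control, and rose by 1.01 ± 0.13.

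Among the wall-loosening families, the larger changes were falls. Of 19 expansin genes, 5 fell and 2 rose, where 8.29% of all probe sets fell and 8.38% rose, and the median of the family was 0.07. The falls include EXPA7 and EXPA18, which were already counted among the root hair genes. EXPA15 (AT2G03090) stood at -0.71, -0.91 and -0.62 in BLM, against 0.83, 0.46 and 0.57 in control (-1.37 ± 0.14, adjusted p = 1.48e-06). EXPB1 (AT2G20750) stood at -0.32, -0.98 and -0.29 in BLM, against 0.64, 0.56 and 0.58 in control (-1.12 ± 0.14), and EXPA8 (AT2G40610) fell by 1.06 ± 0.12. Of the expansin-like genes, EXLA1 (AT3G45970) rose by 0.60 ± 0.19, but did not pass in fits that left out BLM replicate 2 or 3, control replicate 1 or 2 or INA replicate 2 (0.39 to 0.66). EXLA2 (AT4G38400), named after its value was seen, rose by 0.48 ± 0.13 and did not pass in fits that left out BLM replicate 1 or 2 or control replicate 1 or 3 (0.34 to 0.47).

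Xyloglucan endotransglucosylases, which cut and rejoin the hemicellulose that tethers cellulose, were split in the same way, with 4 of 10 lower (8.29% of all probe sets were) and 2 higher (8.38%). XTH18 (AT4G30280) stood at -0.81, -0.55 and -0.60 in BLM, against 0.63, 0.88 and 0.89 in control (-1.45 ± 0.13, adjusted p = 2.76e-07). Its neighbour on the chromosome, XTH19 (AT4G30290), stood at -0.86, -0.44 and -0.26 in BLM, against 0.61, 0.33 and 0.73 in control (-1.08 ± 0.14). XTH16 (AT3G23730) fell by 1.16 ± 0.12 and XTH20 (AT5G48070) by 0.69 ± 0.11. XTH32 (AT2G36870) rose by 0.52 ± 0.11 and EXGT-A3 (AT2G01850) by 0.35 ± 0.10, but EXGT-A3 did not pass in fits that left out BLM replicate 2 or 3 or control replicate 1 or 2 (0.30 to 0.34).

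Of the list for wall polymer synthesis, the 3 measured genes did not pass, where 16.7% of all probe sets did. COB (AT5G60920), which orients cellulose deposition in root cells, had a change of -0.10 ± 0.13, CSLC04 (AT3G28180), a xyloglucan backbone synthase, one of 0.12 ± 0.10, and GUT2 (AT1G27440), a xylan synthesis gene, one of 0.19 ± 0.13. Of 8 genes of the cellulose synthase superfamily 1 rose, where 8.38% of all probe sets did, and the other 7 did not pass. The riser was CSLA01 (AT4G16590), of the mannan synthase group (0.96 ± 0.11). The pectin methylesterase gene ATPMEPCRB (AT4G02330) stood at 0.28, 0.51 and 0.67 in BLM, against -1.08, -0.60 and -0.46 in control, and rose by 1.2 ± 0.15. Several further wall proteins were named after their values were seen. The SKU5-similar genes sks15 (AT4G37160) and sks16 (AT2G23630) fell by 1.73 ± 0.14 and 1.48 ± 0.11. Of the TRICHOME BIREFRINGENCE-LIKE genes, which serve polysaccharide acetylation, TBL41 (AT3G14850) fell by 1.42 ± 0.15 while TBL26 (AT4G01080) rose by 1.31 ± 0.15. RALFL27 (AT3G29780), of the RALF peptide family, fell by 1.43 ± 0.14.

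**Figure D3:**
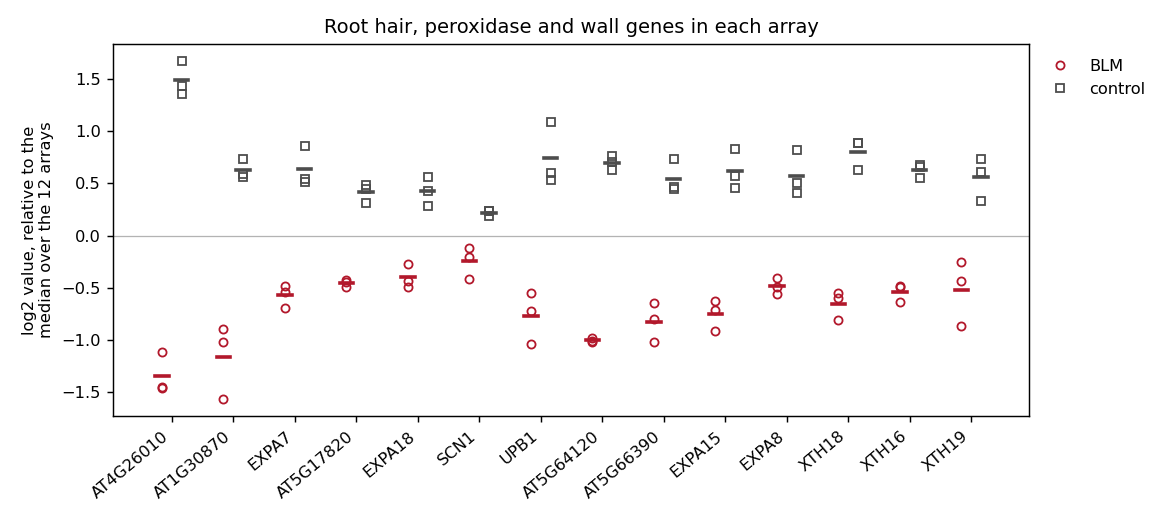
Log2 value of 14 root hair, peroxidase and wall genes in each array, relative to the probe set's median over the 12 arrays; circles are the BLM arrays, squares the control arrays and bars the group means. The groups do not overlap in any gene shown, and AT4G26010, with a change of -2.82, has the widest gap.

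The pigment genes that rose were those of anthocyanin synthesis. Of 7 measured members of the anthocyanin and flavonoid list, of 33 on it, 6 rose and 1 did not pass, with a median of 1.66, where 8.38% of all probe sets rose. DFR (AT5G42800), the dihydroflavonol reductase that commits the pathway to anthocyanins, stood at 2.35, 2.34 and 2.42 in BLM, against -1.06, -1.39 and -0.94 in control, an 11.3-fold rise (3.50 ± 0.15, adjusted p = 1.09e-10). The BLM arrays lay within 0.1 of each other and far above every control array. Genes of the steps that decorate anthocyanins followed: UF3GT (AT5G54060), a glycosyltransferase, stood at 1.95, 1.70 and 1.92 in BLM, against -0.19, -0.45 and -0.26 in control (2.15 ± 0.16). AT5MAT (AT3G29590), the malonyltransferase, stood at 1.47, 1.45 and 1.48 in BLM, against 0.01, -0.42 and -0.18 in control (1.66 ± 0.14). AT4G14090, of the same list, rose by 2.33 ± 0.15.

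Glycosyltransferase genes that also serve flavonols rose less. UGT78D2 (AT5G17050) stood at 0.52, 0.67 and 0.51 in BLM, against 0.03, 0.00 and 0.00 in control (0.55 ± 0.10, adjusted p = 0.00103). UGT78D1 (AT1G30530) stood at 0.19, 0.63 and 0.25 in BLM, against -0.01, -0.21 and -0.25 in control (0.51 ± 0.12). BAN (AT1G61720), the anthocyanidin reductase of seed coat proanthocyanidins, had a change of 0.21 ± 0.13 and did not pass. Its probe set was in the level class under 4 on the log2 scale.

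Few chlorophyll and photosynthesis genes passed, but only 16.7% of all probe sets did. Counts this small do not set these genes apart from the rest. None of the 4 measured genes of chlorophyll and carotenoid synthesis passed. PORB (AT4G27440), a protochlorophyllide oxidoreductase, stood at -0.08, -0.46 and 0.02 in BLM, against 0.27, 0.06 and 0.11 in control (-0.32 ± 0.12, adjusted p = 0.071), and passed when BLM replicate 3 was left out (-0.41). GSA1 (AT5G63570), CHLM (AT4G25080) and LYC (AT3G10230) each had a change of -0.10. Of 5 photosynthesis genes, PSAN (AT5G64040), a subunit of photosystem I, stood at -0.27, -0.25 and -0.15 in BLM, against 0.31, 0.34 and 0.24 in control, and fell by 0.52 ± 0.09 (adjusted p = 0.000588). The light-harvesting genes LHCB4.1 (AT5G01530), LHCB4.2 (AT3G08940) and LHCB4.3 (AT2G40100) and the Rubisco activase gene RCA (AT2G39730) had changes of -0.07 to 0.02 and did not pass. Of 20 photosystem genes of the plastid genome, psbH fell by 0.48 ± 0.16 (adjusted p = 0.0443) and the other 19 did not pass. It did not pass in fits that left out any BLM array (-0.54 to -0.38), control replicate 1 (-0.27), INA replicate 1 or 2 or BLM+INA replicate 2.

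Of the iron-deficiency list, with 5 of 29 members measured, 4 rose, with a median of 1.16, where 8.38% of all probe sets rose. As for the other lists, this count is no independent evidence. BHLH101 (AT5G04150), a transcription factor of the iron-deficiency response, stood at 0.22, 0.17 and 0.71 in BLM, against -1.57, -1.20 and -0.90 in control, a 3.01-fold rise (1.59 ± 0.23, adjusted p = 0.000103). PYE (AT3G47640), a bHLH factor of iron homeostasis, stood at 0.17, 0.17 and 0.34 in BLM, against -0.88, -0.63 and -0.50 in control (0.90 ± 0.11). AT3G13610, listed as F6'H1 and needed for the coumarins that roots release to mobilise iron, stood at 0.24, 0.46 and 0.55 in BLM, against -0.88, -0.78 and -0.58 in control (1.16 ± 0.11, adjusted p = 6.1e-07). AT3G12900 stood at 1.56, 1.58 and 1.56 in BLM, against -1.58, -1.43 and -1.05 in control (2.91 ± 0.13). BGLU42 (AT5G36890), a beta-glucosidase, had a change of 0.36 ± 0.13 (adjusted p = 0.0646) and passed when BLM replicate 3 was left out (0.47). In all 5 genes the BLM arrays lay above the control arrays, where 18.4% of all probe sets did.

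Of the detoxification and mitochondrial stress list, 4 of 6 measured members rose, where 8.38% of all probe sets did, but 3 of the 4 rose by less than 1.5-fold. AT2G21640 stood at 0.47, 0.94 and 1.12 in BLM, against -1.04, -0.76 and -0.47 in control (1.59 ± 0.17, adjusted p = 3.68e-06). GSTU25 (AT1G17180), a glutathione S-transferase, stood at -0.01, 0.30 and 0.63 in BLM, against 0.01, -0.43 and -0.07 in control, so that its groups overlapped (0.47 ± 0.15, adjusted p = 0.0353). It did not pass in fits that left out BLM replicate 2 or 3 or control replicate 2 or 3 (0.31 to 0.52). UGT73C1 (AT2G36750) rose by 0.39 ± 0.11, but not past the threshold in fits that left out BLM replicate 1 or 3 or control replicate 1 or 2 (0.32 to 0.39). AT2G04050 rose by 0.35 ± 0.11, but not in fits that left out any BLM array or control replicate 1 or 2 (0.30 to 0.38). AT2G04070 and the alternative NAD(P)H dehydrogenase gene NDB2 (AT4G05020) had changes of 0.27 ± 0.12 and 0.31 ± 0.17 and did not pass. NDB4 (AT2G20800), of the same enzyme group and named after its value was seen, rose by 1.0 ± 0.15.

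Of 24 cytochrome P450 genes recognised by symbol, 4 rose and 1 fell, where 16.7% of all probe sets passed in either direction. The risers were CYP71B5 (AT3G53280) by 0.85 ± 0.14, CYP71B29 (AT1G13100) by 0.54 ± 0.13, CYP71B34 (AT3G26300) by 0.46 ± 0.11 and CYP71B6 (AT2G24180) by 0.46 ± 0.11. All 4 belong to the CYP71B subfamily, as do most of the 24 genes, and CYP71B29 lost its call without BLM replicate 2 (0.44). The faller, CYP718 (AT2G42850), fell by 0.71 ± 0.12. Of 14 glutathione S-transferase genes, 3 rose (8.38% of all probe sets did) and 2 fell (8.29%), and the larger changes were the falls of ATGSTF13 (AT3G62760), by 0.65 ± 0.12, and GSTU28 (AT1G53680), by 0.63 ± 0.12. Besides GSTU25, the risers were GSTF4 (AT1G02950), by 0.36 ± 0.12, and GSTL3 (AT5G02790), by 0.33 ± 0.09. GSTF4 did not pass in fits that left out BLM replicate 2, control replicate 1 or 2, BLM+INA replicate 2 or 3 or INA replicate 1 or 2 (0.23 to 0.36), nor GSTL3 without BLM replicate 1 or control replicate 1 or 2 (0.27 to 0.34).

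Of 51 UDP-glycosyltransferase genes, 10 rose, 2 fell and 39 did not pass, with a median of 0.14, where 8.38% of all probe sets rose and 8.29% fell. Beside the anthocyanin enzymes, UGT72E1 (AT3G50740), which glucosylates phenylpropanoid precursors of lignin, rose by 0.81 ± 0.14, UGT73D1 (AT3G53150) by 0.76 ± 0.11, UGT76E2 (AT5G59590) by 0.62 ± 0.09 and UGT87A2 (AT2G30140) by 0.57 ± 0.11. UGT71C1 (AT2G29750) stood at -0.37, -0.50 and -0.55 in BLM, against 1.09, 0.60 and 0.43 in control, and fell by 1.18 ± 0.18 (adjusted p = 0.00015). The other faller, UGT84A1 (AT4G15480), named after its value was seen, fell by 0.35 ± 0.10 and did not pass in fits that left out BLM replicate 1 or 3 or any control array (-0.36 to -0.33).

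**Figure D4:**
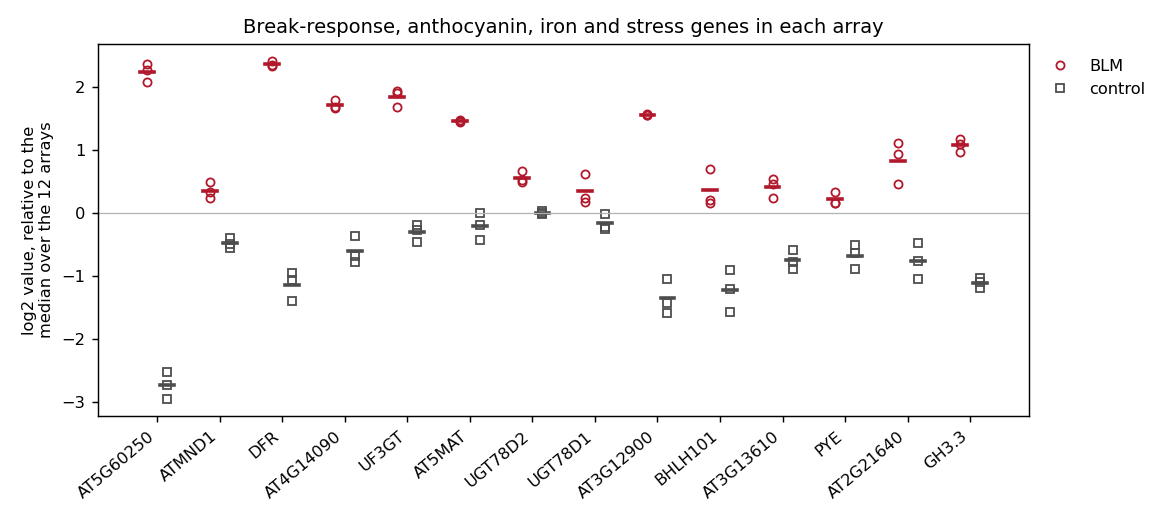
Log2 value of 14 genes that rose, in each array, relative to the probe set's median over the 12 arrays; circles are the BLM arrays, squares the control arrays and bars the group means. AT5G60250 and DFR have the widest gaps (4.97 and 3.50), and no control array of any gene shown reaches the lowest BLM array of that gene.

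Of 12 auxin response genes 1 rose and none fell, where 16.7% of all probe sets passed. It was GH3.3 (AT2G23170), an auxin-conjugating enzyme, which stood at 1.1, 1.18 and 0.97 in BLM, against -1.19, -1.09 and -1.03 in control, a 4.56-fold rise (2.19 ± 0.11, adjusted p = 3.07e-10). Of 7 WRKY transcription factor genes, 4 rose and none fell, where 8.38% of all probe sets rose and 8.29% fell. The largest rise was that of WRKY53 (AT4G23810), a regulator of senescence and defence, which stood at 0.06, 0.18 and 0.15 in BLM, against -0.67, -0.72 and -0.76 in control (0.84 ± 0.18, adjusted p = 0.00373). WRKY22 (AT4G01250), WRKY47 (AT4G01720) and WRKY20 (AT4G26640) rose by 0.53 ± 0.15, 0.38 ± 0.12 and 0.38 ± 0.12. WRKY22 did not pass in fits that left out BLM replicate 1 or 3 or control replicate 1 or 2 (0.45 to 0.51), nor WRKY47 without BLM replicate 1 or 2 or control replicate 1 or 3 (0.32 to 0.37), nor WRKY20 without BLM replicate 2 or 3 or any control array (0.29 to 0.41).

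Plant defensins, small antimicrobial peptides, went both ways. Of 12, 4 fell and 2 rose, where 8.29% of all probe sets fell and 8.38% rose. PDF2.5 (AT5G63660) stood at -1.89, -1.20 and -0.91 in BLM, against 1.26, 1.33 and 1.51 in control, a 6.49-fold fall (-2.70 ± 0.19). LCR68 (AT2G02130), LCR69 (AT2G02100) and PDF2.1 (AT2G02120) fell by 0.50 to 0.52. PDF1.4 (AT1G19610) rose by 0.89 ± 0.15 and LCR67 (AT1G75830) by 0.37 ± 0.09. STZ (AT1G27730), a zinc finger repressor of transcription, acts in the response to salt, cold and drought. It stood at 0.45, -0.29 and 0.61 in BLM, against -1.94, -1.50 and -1.52 in control, and rose by 1.91 ± 0.34 (adjusted p = 0.000693). OCT1 (AT1G73220), an organic cation and carnitine transporter, stood at 0.95, 1.27 and 0.80 in BLM, against -1.15, -1.22 and -0.95 in control, and rose by 2.12 ± 0.15. Among genes named after their values were seen, the RING ubiquitin ligase gene RING1 (AT5G10380) rose by 1.63 ± 0.19, the chitinase gene CHI (AT2G43570) by 1.46 ± 0.12 and the U-box ligase gene PUB23 (AT2G35930) by 0.98 ± 0.15.

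Many of the largest falls were of genes that RefSeq lists by locus only. AT1G52070 stood at -1.99, -2.14 and -1.73 in BLM, against 1.87, 1.03 and 1.67 in control, an 11.1-fold fall (-3.48 ± 0.24). AT1G52060 and AT1G52050, the genes next to it, had changes of -2.78 ± 0.16 and -2.41 ± 0.14. AT2G33850, AT1G50060, AT4G22490 and AT3G05600 fell too, with changes of -3.21 to -2.85, each with all BLM arrays below all control arrays. Among the 156 genes that fell at least 2-fold, 11 lay in 5 runs of direct neighbours, among them XTH18 with XTH19 and the 3 genes AT1G52050 to AT1G52070. Among the 112 genes that rose at least 2-fold, 4 lay in 2 runs, AT1G74440 with AT1G74450 and AT5G38900 with AT5G38910. Neighbours of like sequence can share hybridisation, which these values do not separate.

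The change with BLM was measured again in seedlings that also received INA, as BLM+INA minus INA, in 6 arrays outside the BLM and control means. All 12 arrays were normalised and centred together, and both comparisons used the same estimate of the spread for each probe set. Passing in both is therefore not the outcome of 2 independent tests. In that comparison 4274 probe sets passed, 18.8% of those tested, 2108 upward (9.27%) and 2166 downward (9.52%). Of the 1905 probe sets that rose with BLM alone, 1840 had the same sign with INA present and 1206 (63.3%) rose past the threshold there. Of the 1885 that fell, 1837 had the same sign and 1302 (69.1%) fell past it. Among those that changed at least 2-fold, 239 of 259 risers (92.3%) and 303 of 312 fallers (97.1%) passed in the same direction. Over the 22746 probe sets Pearson's r between both changes was 0.816 and Spearman's rho 0.68, as a description.

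Mitosis and root hair genes fell with BLM in the seedlings given INA too. All 8 mitosis genes fell with BLM+INA against INA, with a median of -1.05, where 9.52% of all probe sets fell. Of these genes, 3xHMG-box2 stood at -0.77, -0.59 and -0.72 in BLM+INA, against 0.67, 0.59 and 0.94 in INA. All 6 root hair genes fell there too, with a median of -0.99, and AT4G26010 stood at -2.15, -1.27 and -1.64 in BLM+INA, against 1.37, 1.11 and 1.27 in INA. No gene of either list passed the test of the difference between both changes, which 0.382% of all probe sets did. ATLIG4 rose with INA present as well (0.45 ± 0.10, adjusted p = 0.00496), and RAD5 did not pass there (0.06 ± 0.13).

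For the pigment and iron lists the median change with BLM was smaller in seedlings given INA. DFR stood at 1.02, 1.01 and 0.94 in BLM+INA, against -2.05, -2.52 and -1.80 in INA, a rise of 3.11 ± 0.15. Of the anthocyanin list 4 of 7 members rose with INA present, with a median of 1.1, where 9.27% of all probe sets rose. UGT78D2 (-0.04 ± 0.10) and UGT78D1 (0.16 ± 0.12) did not pass there. BHLH101 stood at -0.17, 0.46 and 0.79 in BLM+INA, against -0.17, -0.41 and 0.39 in INA, so that the groups overlapped and the change of 0.43 ± 0.23 did not pass. In the iron list 3 of 5 members rose, against the same 9.27%, with a median of 0.55. The difference between both changes passed for AT3G12900 alone among these genes (-1.22 ± 0.19, adjusted p = 0.00411), so a different change with INA was not shown for DFR, UGT78D2, UGT78D1 or BHLH101.

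**Figure D5:**
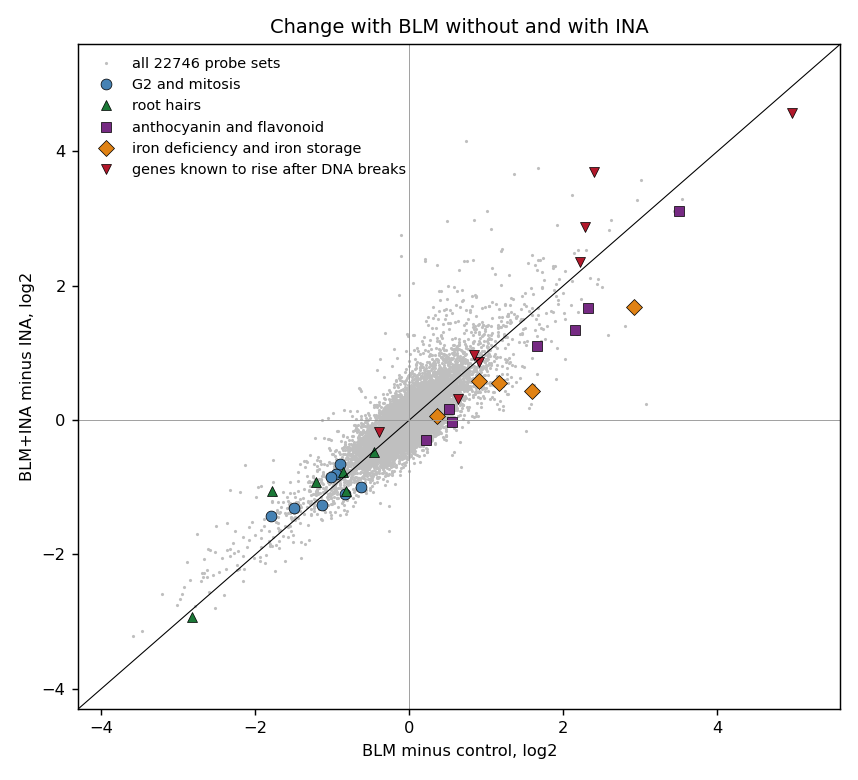
Change with BLM in seedlings that also got INA (BLM+INA minus INA, vertical axis) against the change with BLM alone (BLM minus control, horizontal axis), both on the log2 scale, for all 22746 probe sets in grey and for members of 5 gene lists in colour; the diagonal marks equal changes. The mitosis and root hair genes lie below 0 on both axes, and AT3G12900, at 2.91 and 1.69, lies furthest below it among the coloured points.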

How the data were processed

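Per the submitters' processing notes the authors used RMA (background correction, quantile normalisation, probe summaries), in a version not given in the sources used here. The deposited log2 values had also been centred on each probe set's median over the 12 arrays, as the values show (medians of 0 within 5e-07). The table does not name the base, which RMA sets to 2. Arrays have no read depth, and their number limits the precision.

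Of 22810 probe sets, 64 control probe sets were left out. A gene table paired 13513 with 1 gene, 503 with several, and did not list 8730; symbols came from a RefSeq table (TAIR10.1), in which 77 of the 13513 had no match. The files name no genome build, so no coordinates are printed, and no sequence tables were used. The model (limma 3.58.1, R 4.3.3) had a mean for each of the 4 groups, with 8 residual and 8.82 prior degrees of freedom. Contrasts were BLM against control, BLM+INA against INA, and their difference, each adjusted over 22746 probe sets. On simulated data for BLM against control (22746 probe sets, 5 runs, 200 changed), 63.6% of 1.5-fold changes and 95.6% of 2-fold changes passed, and 4.67% of calls were false.

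The 13 gene lists, the families, found by symbols or synonyms, and the alternatives were chosen with earlier results of these data known. Named genes were the 20 largest rises and 20 largest falls past the threshold with arrays of both groups apart, list members, up to 6 members per family, and up to 10 genes with a difference past the threshold. The 40 largest rises and 40 largest falls among genes with a RefSeq symbol were added after values were seen. Same-numbered BLM and control arrays had correlations of deviations of 0.0796 to 0.259 (3 pairs), higher than the -0.184 to 0.0373 of other pairs (6 pairs). Not every other pair of groups showed this order. What separates the replicates is not given, so numbers were not taken as pairs in the main model. Alternatives were other scalings, weights, variances, filters, thresholds, a replicate block and left-out arrays. Not every list member is reported by name here. Plots were made in Python 3.11.15 with matplotlib 3.10.9.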

Additional observations from a re-analysis of the deposited data

Results flagged for a closer look

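For 15 named genes the change with BLM differed between seedlings with and without INA, by limma's test of the difference (BLM+INA minus INA, less BLM minus control, ± SE), which 87 of 22746 probe sets passed (0.382%; 1698 at an unadjusted p under 0.05). The change with INA exceeded that without it for AT5G52760 (2.46 ± 0.23, adjusted p = 3.02e-05), and for its neighbour AT5G52750 (2.1 ± 0.26). WRKY53 lay between both (2.13 ± 0.26): it stood at 2.59, 2.39 and 3.46 in BLM+INA, against -0.23, -0.19 and -0.06 in INA. AT3G60420 (1.66 ± 0.30), AT1G24140 (1.49 ± 0.15), AT1G10340 (1.39 ± 0.18), AT2G24160 (1.32 ± 0.19) and AT1G35710 (1.25 ± 0.23) also exceeded it. The probe sets of AT5G52760, AT1G24140 and AT1G35710 lay, judged by how finely their numbers are stored, under 4 on the log2 scale, and those of the other 12 genes at 4 or over.

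The rise with BLM was smaller with INA for AT3G12900 (-1.22 ± 0.19), AT5G03350 (-1.11 ± 0.19), AT2G25510 (-1.37 ± 0.23) and SAG29 (-0.81 ± 0.16). AT5G03350 already stood at 1.37, 1.23 and 1.37 in INA alone, against -3.65, -3.69 and -3.51 in control. Its highest values, 2.23, 2.19 and 2.29, were in BLM+INA. AT5G57760 (-1.37 ± 0.24) rose by 0.67 without INA and fell by 0.70 with it. Its rise without INA did not pass when BLM replicate 1 (0.53) or control replicate 2 (0.59) was left out. The fall with BLM was smaller with INA for AT2G36885 (0.83 ± 0.18, adjusted p = 0.0486). MSRB9 (AT4G21850), a methionine sulfoxide reductase, fell by 0.99 ± 0.15 with BLM alone and had a change of 0.10 ± 0.15 with INA (difference 1.09 ± 0.21). Of the 12 fits without 1 array, the call of the difference was lost in 10 for AT2G36885 (0.73 to 0.86; it held without control replicate 2 or INA replicate 3), in 9 for SAG29 (-0.84 to -0.73; it held without control replicate 3, BLM+INA replicate 2 or INA replicate 2) and in 7 for MSRB9 (0.92 to 1.1; without BLM replicate 1, control replicate 2 or 3, BLM+INA replicate 1 or 3 or INA replicate 1 or 2). It was lost for AT3G60420 without control replicate 3, BLM+INA replicate 1 or INA replicate 1 or 2 (1.49 to 1.60), for AT1G35710 without control replicate 3, BLM+INA replicate 1 or INA replicate 2 (1.14 to 1.21), and in 0 fits for the other 10 genes.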

How the results depend on the processing

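For BLM against control, 3790 probe sets passed, against 1935 when only probe sets with 1 gene were tested, 2254 at an adjusted p of 0.01, and 2276 and 1918 without the 4 arrays numbered 1 and 2 (alternatives chosen after seeing the data). Without 1 array at a time the count was 2691 to 3895. The 571 probe sets changed at least 2-fold became 269 with 1-gene probe sets only, and 555 to 581 without 1 array. For BLM+INA against INA the 4274 became 2101, 2569, 2616 and 2262 under the same 4 settings, and 3196 to 4373 without 1 array. The difference between both changes, 87 probe sets, was the least stable: 45 after quantile normalization, 2 without variance moderation, 34 with 1-gene probe sets only, 42 at 0.01, 27 and 40 without the arrays numbered 1 and 2, and 59 to 124 without 1 array; the cause was not tested. The replicate block gave 4530, 5019 and 170 probe sets for the 3 contrasts. Same-numbered BLM and control arrays correlated more (0.0796 to 0.259) than other pairs (-0.184 to 0.0373), a hint from the data and not from the design. Other pairs of groups did not all show this order. INA replicate 2 had a correlation of -0.0534 with BLM replicate 2 and of 0.246 with BLM replicate 1. Of 209 named probe sets 179 passed; 153 kept their call without each array in turn and 139 in every setting, and 0 changed sign. The median change of all probe sets was 0.0419, or 0.0238 and 0.0171 after array centring and quantile normalization.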

Other observations

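Further genes with a RefSeq symbol, named after their values were seen or as members of a family, were not described above. ICL (AT3G21720), the isocitrate lyase of the glyoxylate cycle, stood at 0.64, 0.86 and 0.95 in BLM, against -1.03, -0.64 and -1.09 in control (1.74 ± 0.16). PPDK (AT4G15530), which makes phosphoenolpyruvate from pyruvate, rose by 1.44 ± 0.14, APL3 (AT4G39210), a large subunit of the ADP-glucose pyrophosphorylase of starch synthesis, by 1.08 ± 0.21, and PWD (AT4G24450), of the glucan water dikinase group, by 0.99 ± 0.14. Of 16 SWEET sugar transporter genes, 3 rose and 1 fell, where 8.38% of all probe sets rose and 8.29% fell. SAG29 (AT5G13170), which is SWEET15, stood at 1.41, 1.43 and 1.51 in BLM, against -0.06, -0.08 and 0.18 in control (1.43 ± 0.12). SWEET13 (AT5G50800) and SWEET17 (AT4G15920) rose by 0.73 ± 0.17 and 0.40 ± 0.09, and SWEET4 (AT3G28007) fell by 0.98 ± 0.16. Of single genes named after their values were seen, SAG101 (AT5G14930) rose by 0.80 ± 0.17, the vacuolar protease gene BETA-VPE (AT1G62710) by 0.79 ± 0.13 and the autophagy gene ATG8B (AT4G04620) by 0.78 ± 0.15.

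SPCH (AT5G53210), the bHLH factor that starts the stomatal lineage, stood at -0.63, -0.63 and -0.38 in BLM, against 0.35, 0.46 and 0.15 in control (-0.87 ± 0.11, adjusted p = 2.19e-05). It was lower with INA present too (-0.69 ± 0.11). CLE41 (AT3G24770), a peptide that keeps vascular stem cells dividing, stood at 0.53, 0.44 and 0.51 in BLM, against -0.41, -0.29 and -0.07 in control (0.75 ± 0.11, adjusted p = 8.47e-05).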
